A study of Mus musculus with 48 samples.

Results

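The genes examined were 10 members of the planar cell polarity (PCP) branch of Wnt signaling, namely Ror1 and Ror2, Vangl1 and Vangl2, Prickle1, Prickle2 and Prickle3, and Celsr1, Celsr2 and Celsr3. They were taken by name from the deposited gene count table, where all 10 were found among 55357 genes, and all 10 passed the filter on low counts that left 21390 genes for testing.

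In PCP signaling, cells align with one another across a tissue through complexes that sit on opposite faces of the cell. Celsr proteins are large adhesion cadherins that bridge neighboring cells, Vangl proteins are membrane proteins that recruit the cytoplasmic Prickle proteins to one face, and Frizzled and Dishevelled occupy the other. Ror1 and Ror2 are receptor tyrosine kinase-like receptors for Wnt5a-type ligands and relay the signal without beta-catenin. In the brain this pathway is known for its part in axon guidance, dendrite growth, synapse formation, neuronal migration and the placing of cilia.

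RNA came from the dorsal dentate gyrus of wild-type C57BL/6J mice that received kainate or saline into 1 hippocampus, kainate being the agent that induces status epilepticus (SE) in this model of temporal lobe epilepsy. The ipsilateral dentate gyrus stands for the epileptogenic zone (EZ) and the contralateral one for the peri-ictal zone (PIZ). Tissue was taken at day 3, 7 or 14 from 4 mice for each injection and day, 2 male and 2 female, so that 24 mice gave 48 libraries in 12 groups of 4. No mouse was pooled with another, and both zones of a mouse were sequenced separately. Ages differed between sources, with 6 to 8 weeks in the sample records against 8 to 10 weeks in the methods. Saline controls also underwent the needle injection on the EZ side, and kainate mice were kept only where a seizure had been seen after injection.

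Library totals lay between 17762656 and 25712975 counts. The 5 granule cell markers that check the labelled tissue (Prox1, C1ql2, Dsp, Calb1 and Tdo2) were detected in all 12 groups. Their summed level was 377 to 831 CPM (counts scaled by TMM to one fixed library total) over the saline libraries, 289 to 507 in the kainate EZ at day 3 and 124 to 668 at day 7. Markers of CA pyramidal neurons (Wfs1, Fibcd1, Spink8, Bok and Neurod6) were also present, so detection of granule cell markers does not show dentate tissue alone. They summed to 316 to 700 CPM in the saline EZ, 107 to 165 in the kainate EZ at day 3 and 104 to 238 at day 7. The 5 microglia markers summed to 358 to 746 CPM in the saline EZ, 1070 to 1770 in the kainate EZ at day 3 and 1330 to 4690 at day 7. In these bulk samples, fewer cells of a type and less RNA per cell cannot be told apart.

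In both the Ror and the Prickle family, 1 gene rose and another fell in the kainate EZ, so the stretches just upstream of those 4 genes are shown for comparison. They are the parts of the RefSeq promoter windows (table build GRCm38.p6) that lie outside the Gencode M39 gene, placed by exact match on GRCm39, 5′ to 3′ on the gene's strand. Capitals mark the searched motifs on either strand, the GC box GGGCGG and the TCF/LEF core CTTTGA. The 4 stretches are Ror1 at chr4:99952738-99952987 on the plus strand, Ror2 at chr13:53440248-53440410 on the minus strand, Prickle2 at chr6:92683216-92683415 on the minus strand and Prickle3 at chrX:7523368-7523498 on the plus strand.
Ror1: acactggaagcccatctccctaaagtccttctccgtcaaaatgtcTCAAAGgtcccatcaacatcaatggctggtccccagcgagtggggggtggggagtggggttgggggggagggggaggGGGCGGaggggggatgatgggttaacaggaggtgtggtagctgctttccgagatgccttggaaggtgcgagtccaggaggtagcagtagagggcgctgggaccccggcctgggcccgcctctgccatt
Ror2: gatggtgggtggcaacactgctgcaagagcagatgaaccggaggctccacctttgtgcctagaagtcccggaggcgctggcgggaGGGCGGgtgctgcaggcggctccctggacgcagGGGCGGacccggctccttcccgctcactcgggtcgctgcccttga
Prickle2: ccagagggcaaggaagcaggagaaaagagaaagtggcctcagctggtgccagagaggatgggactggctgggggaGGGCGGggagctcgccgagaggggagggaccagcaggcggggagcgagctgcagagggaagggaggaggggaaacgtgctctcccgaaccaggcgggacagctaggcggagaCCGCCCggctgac
Prickle3: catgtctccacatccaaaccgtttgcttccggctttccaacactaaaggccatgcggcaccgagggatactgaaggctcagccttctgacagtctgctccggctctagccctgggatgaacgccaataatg

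Ror1 had 1 GC box and 1 TCF/LEF core in its full window of 250 bases. The full windows of Ror2, Prickle2 at this start and Prickle3 had 4, 3 and 1 GC boxes and no TCF/LEF core. Of the 3 other Prickle2 windows in the table, at starts within the gene, 1 held a TCF/LEF core and 2 a GC box. Among all 32851 windows of that length, 32.7% held a GC box and 13.8% a TCF/LEF core. The AP-1 motif TGANTCA occurred once, in the Ror2 window outside the stretch shown, against 6.75% of all windows, and the CRE motif TGACGTCA in none of the 4, against 1.55%. A match describes letters only, and windows for Celsr1 and Vangl1 were not in the table used.

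In saline mice the 10 genes spanned a wide range of levels, with 1 abundant member in the Prickle family and a pair in the Celsr family. Per transcript length, Prickle2 was the highest of the 10, with a median of 40.4 RPKM (CPM divided by the exon length in kilobases, 32.8 to 49.0 over 24 saline libraries), followed by Celsr2 at 21.7 RPKM (18.6 to 24.8) and Celsr3 at 14.2 RPKM (11.1 to 18.2). Prickle1 followed at 6.06 RPKM and Vangl2 at 2.56 RPKM. Ror1, Celsr1, Vangl1, Prickle3 and Ror2 were low, with medians of 1.03, 0.785, 0.364, 0.165 and 0.0745 RPKM. The ranges of neighbors in this order overlapped for Ror1 and Celsr1, for Vangl1 and Prickle3, and for Prickle3 and Ror2, and did not overlap elsewhere. Ror2 rested on 1 to 49 counts per library over all 48 libraries and Prickle3 on 10 to 112, so their values carry the largest counting error.

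**Figure D1:**
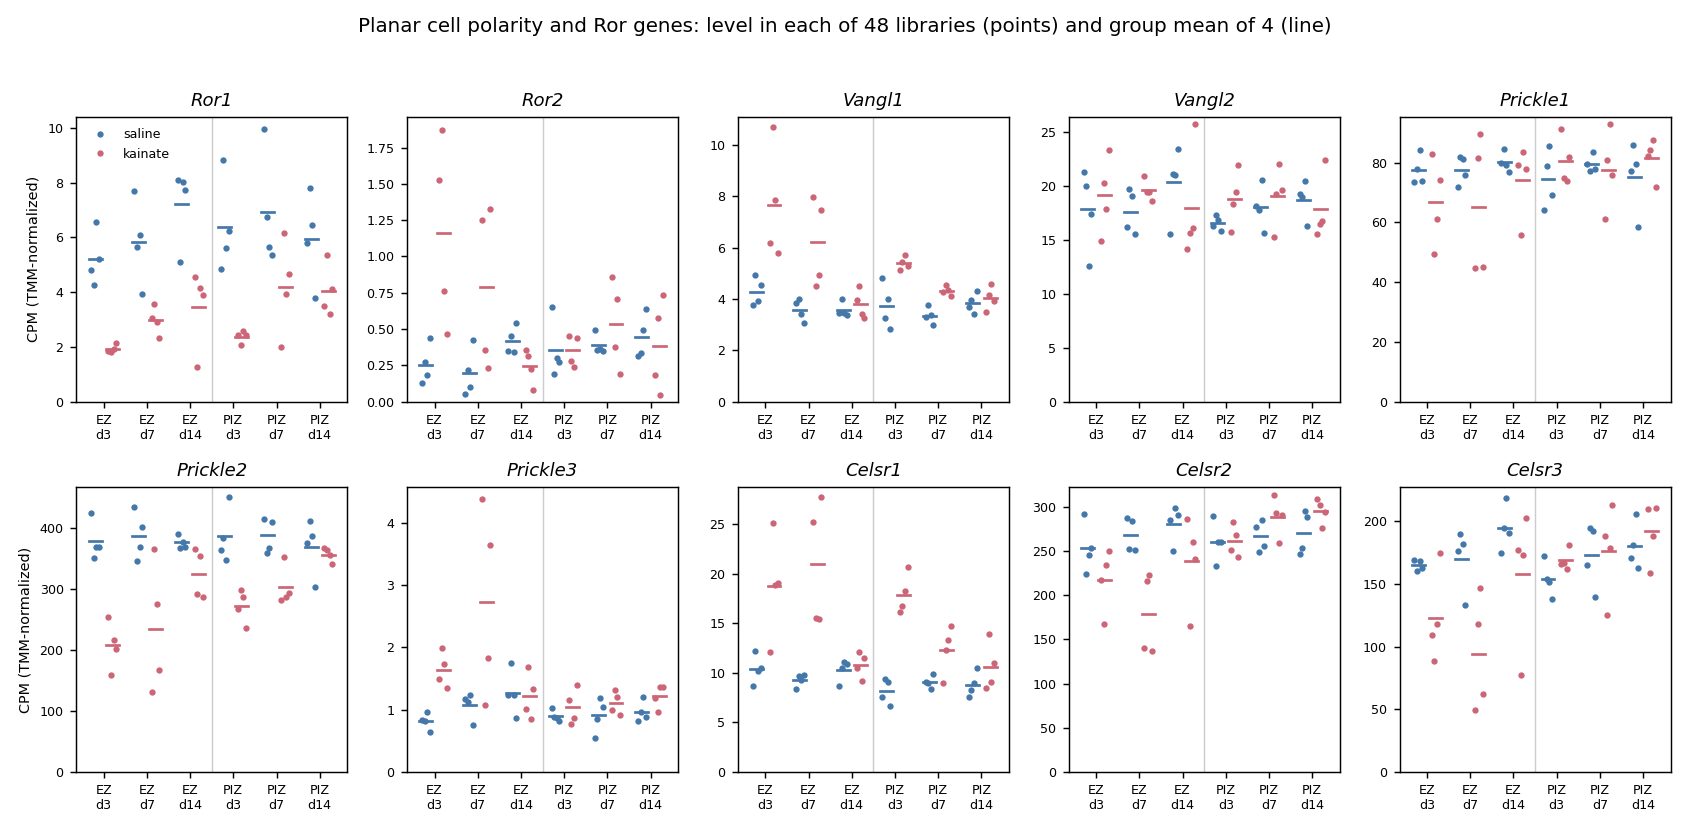
Level of each gene in CPM (linear axes from 0) for every library, by zone (EZ, PIZ) and day (d3, d7, d14), with saline in blue, kainate in red and a line at the mean of 4 mice. At day 3, Ror1 and Prickle2 points of the kainate EZ lie below the 4 saline EZ points of that day, and those of Ror2, Vangl1 and Prickle3 lie above them.

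In saline mice no zone difference was called for these genes. Over the 3 days together, the difference between saline EZ and saline PIZ was called for 0 of 10 genes by edgeR's quasi-likelihood test, against 0.0234% of all tested genes, with 0 genes at an unadjusted p under 0.05 (8.92% of all genes) and 0 calls by DESeq2 or limma-voom. With mouse as a fixed block in edgeR, 0 were called and 1 gene was at an unadjusted p under 0.05 (11.4% of all genes), Celsr1 with 0.21 (adjusted p = 0.408), which was higher in the EZ in 10 of 12 saline mice. The largest of the 10 values was -0.49 ± 0.36 (SE, log2) for Ror2.

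At day 3 the kainate EZ differed from the saline EZ in 6 of the 10 genes. A gene was called when edgeR's quasi-likelihood test gave a Benjamini-Hochberg adjusted p under 0.01 over all tested genes and the fold change exceeded 1.5. Ror2, Prickle3, Celsr1 and Vangl1 rose, and Ror1 and Prickle2 fell. In this comparison 24.7% of all tested genes were called, 16.1% as higher and 8.61% as lower. The median of the 10 log2 fold changes was -0.06, beside 0.03 over all tested genes. At day 7, 8 of the 10 were called in the EZ, against 32.5% of all tested genes, since Celsr2 and Celsr3 had also fallen past the threshold. Of all tested genes, 20.6% were called higher and 11.9% lower on that day. When only the 8 libraries compared were fitted, Celsr1 and Ror1 were called at day 7, beside 18.8% of all tested genes. The other 6 had adjusted p of 0.0185 to 0.0774 in that fit. A test against a fold change of 1.5 (glmTreat) called Ror1 at day 3 and Celsr1 and Prickle3 at day 7 in the EZ. The share of all genes called by glmTreat was not counted. Scaling by library size only gave 4233 higher and 1313 lower calls over all genes in the EZ at day 3, where TMM gave 3439 and 1841.

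In the EZ at day 14 none of the 10 was called by edgeR, against 2.36% of all tested genes, with 1 gene (Ror1) at an unadjusted p under 0.05, against 18%, and 1 call by DESeq2 (3.44% of all genes) and 0 by limma-voom (0.271%). The PIZ had 2 called genes at day 3, Celsr1 higher (7.12% of all genes were) and Ror1 lower (1.57% were), against 8.69% in all. At day 7 and day 14 the PIZ had 0 calls by edgeR, DESeq2 or limma-voom, against 0.201% and 0.014% by edgeR. At an unadjusted p under 0.05 it had 4 and 0 of the 10, against 14.5% and 5.97% of all tested genes.

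**Figure D2:**
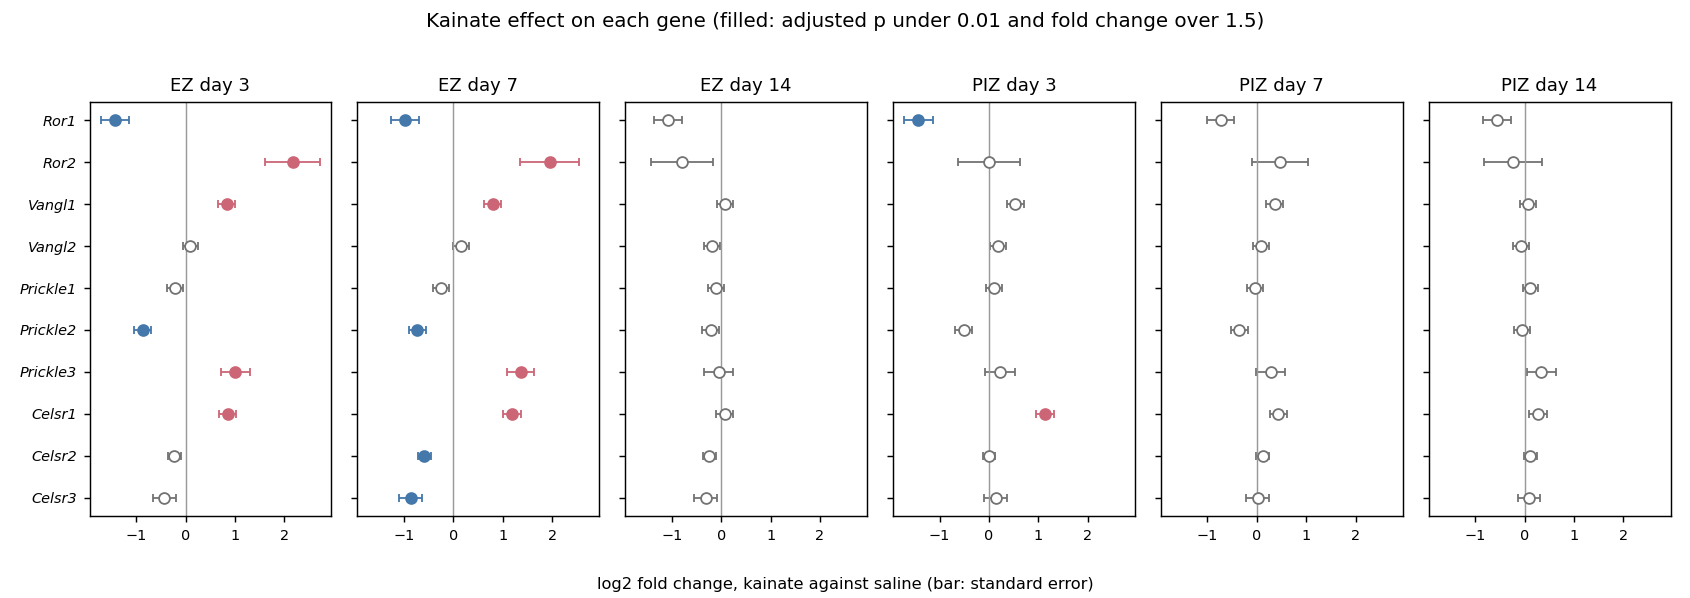
Log2 fold change of kainate against saline (horizontal axis) for each gene in the 6 comparisons, with the standard error as a bar and filled points for genes called by edgeR (red higher, blue lower). Filled points number 6 and 8 for EZ days 3 and 7, 2 for PIZ day 3 and 0 in the other comparisons.

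Of the receptors, Ror1 fell on both sides. Its level was 4.81, 4.28, 6.55 and 5.21 CPM in the saline EZ at day 3 and 1.84, 1.80, 1.92 and 2.15 CPM in the kainate EZ. In the PIZ on that day it was 4.83, 8.84, 5.63 and 6.24 CPM with saline and 2.42, 2.06, 2.58 and 2.44 CPM with kainate. Every kainate library was below every saline library in both zones, and the kainate values lay close together.

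The log2 fold change of Ror1 at day 3 was -1.43 ± 0.29 (SE) in the EZ, with an adjusted p of 0.000121 in edgeR, and -1.43 ± 0.29 in the PIZ, with an adjusted p of 0.000412. The EZ effect minus the PIZ effect was -0.01 ± 0.38. An exact two-sided permutation test on the 4 against 4 mice gave p = 0.0286 on either side, the smallest such a design allows. Groups without overlap were common at day 3, at 42.4% of tested genes in the EZ and 30.7% in the PIZ, beside 5 and 4 of the 10. They numbered 4 of the 10 in the EZ at day 7 (43.8% of tested genes), 2 in the EZ at day 14 (8.0%), 2 in the PIZ at day 7 (12.9%) and 0 in the PIZ at day 14 (7.18%).

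At day 7 Ror1 stood at 7.71, 5.64, 6.09 and 3.95 CPM in the saline EZ and at 3.06, 3.57, 2.92 and 2.32 CPM in the kainate EZ. The groups did not overlap, and the log2 fold change was -0.98 ± 0.28 (edgeR adjusted p = 0.00355). In limma-voom it did not pass the threshold, at -1.13 with an adjusted p of 0.0105 and, with mouse as a block, at -1.12 with an adjusted p of 0.0138. Leaving out kainate mouse 35 or saline mouse 20 also ended the call, with values between -1.13 and -0.818 over the 8 mice left out in turn.

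At day 14 the EZ values of Ror1 were 8.11, 5.10, 8.02 and 7.74 CPM with saline and 4.54, 1.27, 4.16 and 3.88 CPM with kainate. The groups were apart, and the lowest kainate value came from mouse 27. The log2 fold change of -1.07 ± 0.28 had an adjusted p of 0.0172 in edgeR, short of the threshold, and 0.00622 in DESeq2. Without mouse 27 it was -0.789, and it was called without kainate mouse 14, at -1.23. In the PIZ the log2 fold changes of -0.73 ± 0.28 at day 7 and -0.56 ± 0.28 at day 14 did not pass (edgeR adjusted p = 0.2 and 0.845), and the groups overlapped.

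Ror2, the other receptor, rose in the EZ. Its level was 0.132, 0.270, 0.184 and 0.438 CPM in the saline EZ at day 3, from 3, 6, 4 and 9 counts. In the kainate EZ it was 1.53, 1.87, 0.762 and 0.463 CPM, from 40, 49, 21 and 11 counts. The groups did not overlap, though kainate mouse 44 was close to the highest saline mouse. This gave a log2 fold change of 2.17 ± 0.56 (edgeR adjusted p = 0.00159), and without kainate mouse 38 it was 1.83 and not called.

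At day 7 Ror2 was 0.051, 0.217, 0.103 and 0.424 CPM in the saline EZ and 1.25, 0.357, 0.234 and 1.33 CPM in the kainate EZ. Kainate mice 21 and 35 were above all saline mice, while mice 23 and 26 lay within the saline range. Its log2 fold change was 1.95 ± 0.6 (edgeR adjusted p = 0.00531), and it lost the call without kainate mouse 21 or 35 or saline mouse 20, 33 or 34, at 1.6 to 2.59 over all mice left out. At day 14 the difference was -0.79 ± 0.63, and in the PIZ it was 0.47 ± 0.57 at day 7, -0.24 ± 0.59 at day 14 and a fold of 0.999 at day 3, none of them called. The EZ effect minus the PIZ effect at day 3 was 2.17 ± 0.82, with an edgeR adjusted p of 0.164, and was not called. Within the kainate mice of day 3, Ror2 was higher in the EZ in 4 of 4, with EZ minus PIZ differences of 1.58, 2.39, 1.37 and 0.06 on the log2 scale. The saline mice of that day gave -1.73, 0.34, -0.52 and 0.54. At day 7 the kainate mice gave 0.5, -0.05, -1.3 and 2.32, with the EZ higher in 2 of 4, and at day 14 it was also higher in 2 of 4.

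The share of Ror2 in the summed Ror RPKM described both movements at once. It was 3.32% to 9.51% in the saline EZ at day 3 and 21.2% to 56.6% in the kainate EZ. At day 7 it was 0.82% to 11.8% with saline and 9.09% to 41.7% with kainate. The PIZ shares at day 3 were 2.67% to 14.4% with saline and 10.4% to 18.9% with kainate, where Ror1 fell and Ror2 did not pass the test. At day 14 the ranges overlapped in both zones.

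**Figure D3:**
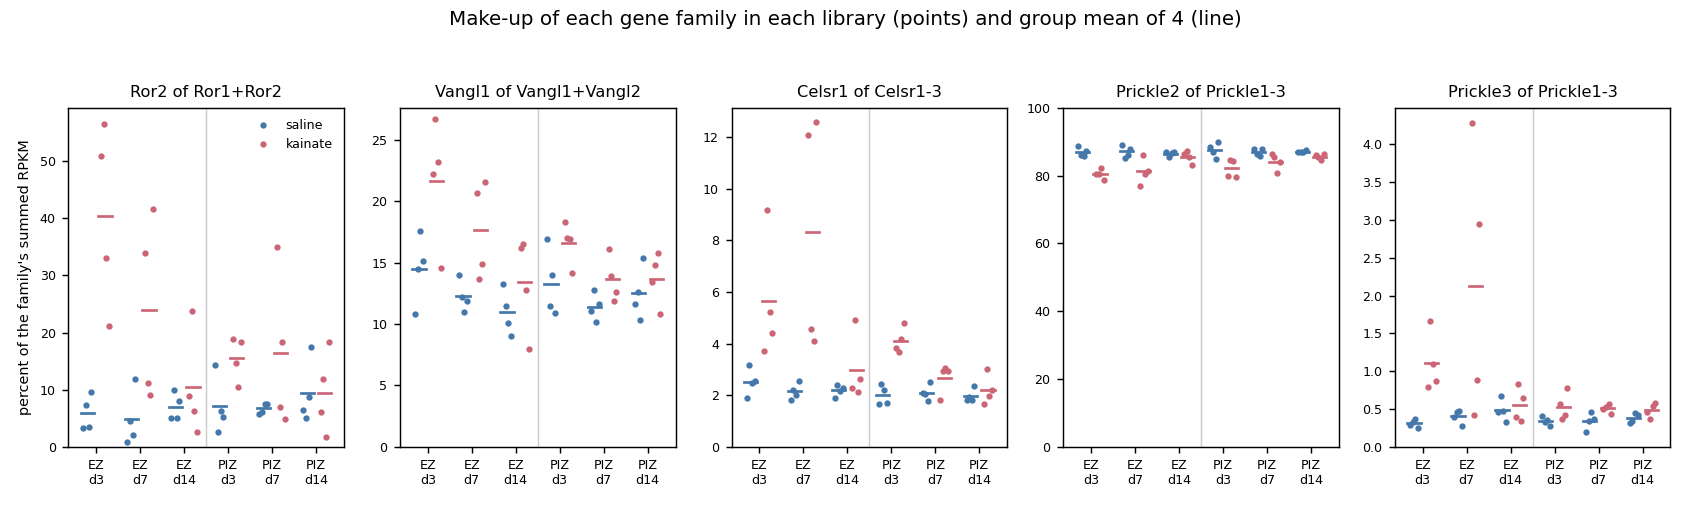
Percent of a family's summed RPKM that 1 member takes (vertical axes from 0, in percent), for every library by zone and day, saline blue, kainate red, line at the mean of 4. The Ror2 share reached 56.6% in the kainate EZ at day 3, and the Prickle2 share stayed at 76.9% or more in every library.

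The Vangl genes, which encode the 4-pass membrane proteins at the core of the PCP complex, differed from each other. Vangl1 was 3.75, 4.95, 3.92 and 4.53 CPM in the saline EZ at day 3 and 6.20, 10.7, 7.87 and 5.81 CPM in the kainate EZ. At day 7 it was 3.83, 3.99, 3.41 and 3.06 CPM with saline and 7.96, 4.49, 4.95 and 7.47 CPM with kainate. The groups were apart on both days, and at day 7 mice 21 and 35 were again the highest. The log2 fold changes were 0.83 ± 0.17 and 0.80 ± 0.17, with edgeR adjusted p of 8.85e-05 and 0.000116.

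Vangl1 in the PIZ at day 3 was 4.83, 3.26, 3.99 and 2.82 CPM with saline and 5.12, 5.46, 5.72 and 5.28 CPM with kainate, again without overlap. The log2 fold change of 0.53 ± 0.17 had an edgeR adjusted p of 0.0184 and was not called. It passed in limma-voom, at 0.587 with an adjusted p of 0.000654 and, with mouse as a block, at 0.593 with an adjusted p of 0.000791. It also passed without saline mouse 18 (0.682) and with scaling by library size only (0.626). At day 7 in the PIZ the value was 0.36 ± 0.17, also with no overlap, and at day 14 both zones gave 0.08 and 0.07. The share of Vangl1 in the summed Vangl RPKM was 10.8% to 17.6% in the saline EZ at day 3 and 14.6% to 26.7% in the kainate EZ.

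Vangl2, the more abundant of the pair, was called in none of the 6 comparisons. It ranged from 12.6 to 21.3 CPM in the saline EZ and from 14.9 to 23.3 CPM in the kainate EZ at day 3, and the groups overlapped on every day in both zones. The log2 fold change was 0.10, with a 95% interval of -0.22 to 0.41, in the EZ at day 3 and 0.15, with an interval of -0.16 to 0.47, at day 7. These intervals leave room for a change smaller than 1.5-fold.

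The Prickle genes, which encode LIM-domain proteins that bind Vangl in the cytoplasm, moved in different directions. Prickle2 was 425, 352, 369 and 369 CPM in the saline EZ at day 3 and 254, 159, 216 and 202 CPM in the kainate EZ. Every kainate library was below every saline library. Prickle2 thus had a log2 fold change of -0.87 ± 0.17 (edgeR adjusted p = 7.83e-05).

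At day 7 Prickle2 was 435, 347, 370 and 402 CPM in the saline EZ and 131, 366, 276 and 167 CPM in the kainate EZ. Kainate mouse 23 was within the saline range and mice 21 and 35 were the lowest. Its log2 fold change was -0.73 ± 0.17 (edgeR adjusted p = 0.000419), and it fell below the threshold on fold without mouse 21, at -0.524. The PIZ kainate libraries of days 3 and 7 lay below all saline libraries, with 237 to 298 against 348 to 452 CPM and 283 to 353 against 360 to 416 CPM. The corresponding values of -0.51 ± 0.17 and -0.35 ± 0.17 were not called (edgeR adjusted p = 0.0265 and 0.321). At day 14 the EZ libraries were again apart, at 287 to 367 against 368 to 391 CPM, with -0.21 ± 0.17 and no call.

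Prickle3, the least abundant of the 3, rose in the EZ. It was 0.839, 0.810, 0.968 and 0.633 CPM with saline and 1.49, 1.99, 1.74 and 1.35 CPM with kainate at day 3. The groups did not overlap, and the log2 fold change was 1.01 ± 0.29 (edgeR adjusted p = 0.00419). The call was lost without kainate mouse 38 or 42 or saline mouse 18, 29 or 41, with values of 0.906 to 1.10 over the mice left out.

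At day 7 Prickle3 was 1.17, 1.13, 1.24 and 0.753 CPM with saline and 4.39, 1.07, 1.83 and 3.65 CPM with kainate in the EZ. Mice 21 and 35 had the highest values of all 48 libraries, and mouse 23 lay within the saline range. For Prickle3 the log2 fold change was 1.36 ± 0.28 (edgeR adjusted p = 9.54e-05). In the PIZ the values of 0.22, 0.28 and 0.34 at days 3, 7 and 14 were not called, each with an SE of 0.30. The EZ effect minus the PIZ effect at day 7 was 1.08 ± 0.41, with an edgeR adjusted p of 0.0473, over the threshold of 0.01. With mouse as a fixed block in edgeR it was 0.92, with an adjusted p of 0.143.

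Prickle1 was called in none of the 6 comparisons. In the EZ it was 73.5 to 84.1 CPM with saline and 49.4 to 83.0 CPM with kainate at day 3, and 71.9 to 81.8 CPM against 44.8 to 89.7 CPM at day 7. The lowest values at day 7 were 44.8 CPM in mouse 21 and 45.1 CPM in mouse 35, and the other kainate mice were at 81.4 and 89.7 CPM. On day 7 the log2 fold change was -0.25, with a 95% interval of -0.57 to 0.07.

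The Celsr genes, which encode the 7-pass cadherins, split between Celsr1 and the more abundant Celsr2 and Celsr3. Celsr1 was 8.70, 12.2, 10.2 and 10.5 CPM in the saline EZ at day 3 and 12.1, 25.1, 18.9 and 19.1 CPM in the kainate EZ. Kainate mouse 30 fell just within the saline range and the other kainate mice were above it. Celsr1 had a log2 fold change of 0.85 ± 0.18 (edgeR adjusted p = 0.000201).

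Celsr1 in the PIZ at day 3 was 7.52, 9.33, 9.02 and 6.65 CPM with saline and 16.1, 16.7, 18.3 and 20.7 CPM with kainate. The groups were widely apart, with a log2 fold change of 1.14 ± 0.18 (edgeR adjusted p = 2.47e-05). The EZ effect minus the PIZ effect was -0.29 ± 0.26 on that day, with an edgeR adjusted p of 0.566. Within each kainate mouse, the EZ minus PIZ difference of Celsr1 at day 3 was -0.40, 0.59, 0.05 and -0.12 on the log2 scale, without a common direction.

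At day 7 Celsr1 in the EZ was 8.37 to 9.75 CPM with saline and 25.2, 15.5, 15.4 and 27.7 CPM with kainate, for a log2 fold change of 1.18 ± 0.18 (edgeR adjusted p = 1.47e-06). All kainate mice were above all saline mice. In the PIZ it was 9.01, 12.3, 13.3 and 14.7 CPM with kainate against 8.36 to 9.91 CPM with saline, and the value of 0.44 ± 0.18 was not called (edgeR adjusted p = 0.241). The lowest of these PIZ values belonged to mouse 21, whose EZ value was the second highest. For Celsr1 the EZ effect minus the PIZ effect on day 7 was 0.73 ± 0.26, with an edgeR adjusted p of 0.0316, and was not called. Within the kainate mice the EZ was higher in 4 of 4, by 1.47, 0.33, 0.22 and 0.91 on the log2 scale. At day 14 the values of 0.07 ± 0.18 in the EZ and 0.27 ± 0.18 in the PIZ were not called.

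Celsr2 was not called in the EZ at day 3 (-0.23 ± 0.13) or day 14 (-0.24 ± 0.13), and its values of 0.00, 0.12 and 0.12 in the PIZ were not called either. In the EZ at day 7 it was 288, 253, 284 and 252 CPM with saline and 140, 216, 223 and 137 CPM with kainate. Every kainate library was below every saline library, and mice 21 and 35 were the lowest. A log2 fold change of -0.59 ± 0.13 (edgeR adjusted p = 0.000339) lay close to the threshold of 1.5-fold. It was not called without kainate mouse 21 or 35 or saline mouse 20 or 34, at -0.706 to -0.474 over the mice left out, nor with scaling by library size only, at -0.514.

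In the PIZ on that day Celsr2 was 277, 249, 285 and 256 CPM with saline and 314, 293, 259 and 291 CPM with kainate, and the groups overlapped. The EZ effect minus the PIZ effect was -0.70 ± 0.19, with an edgeR adjusted p of 0.00742. This was the 1 gene of the 10 for which edgeR called a difference between zones, on a day when 9.89% of all tested genes were called. The Celsr2 difference was not called when only the compared groups were fitted (adjusted p = 0.0282) or with glmTreat (0.461). With mouse as a fixed block in edgeR it was called, at -0.73 with an adjusted p of 0.00874. Limma-voom called 5 of the 10 on that day, beside 24% of all tested genes. Without kainate mouse 21 or 35 or any of the saline mice 20, 33, 34 and 89 the call was lost, at -0.867 to -0.555 over the mice left out. Within each kainate mouse the EZ was lower than the PIZ, with EZ minus PIZ differences of -1.16, -0.44, -0.21 and -1.08 on the log2 scale, and in the saline mice the differences were 0.05, 0.02, -0.00 and -0.03.

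Celsr3 followed a like course in the EZ. At day 3 it was 160 to 169 CPM with saline and 109, 88.1, 118 and 175 CPM with kainate, with -0.43 ± 0.23 and no call. At day 7 it was 176, 190, 182 and 133 CPM with saline and 49.4, 118, 147 and 62.2 CPM with kainate. Mouse 26 lay within the saline range and mice 21 and 35 were far below it. A log2 fold change of -0.86 ± 0.23 (edgeR adjusted p = 0.00186) was not called without mouse 21 or mouse 35, at -0.642 without the former. In the PIZ the values of 0.14, 0.02 and 0.09 at days 3, 7 and 14 had an SE of 0.23 each. The EZ effect minus the PIZ effect at day 7 was -0.88 ± 0.33, with an edgeR adjusted p of 0.0405, and was not called. Within the kainate mice Celsr3 was lower in the EZ in 12 of 12, with log2 differences of -0.61, -0.92, -0.45 and -0.05 at day 3. They were -1.92, -0.08, -0.28 and -1.78 at day 7, and all below 0 again at day 14 (-1.04 to -0.06). In the saline mice they lay between -0.08 and 0.24.

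The share of Celsr1 in the summed Celsr RPKM was 1.83% to 2.55% in the saline EZ at day 7 and 12.1%, 4.56%, 4.12% and 12.6% in the kainate EZ. In the PIZ at day 3 it was 1.65% to 2.43% with saline and 3.68% to 4.80% with kainate.

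In the EZ at day 7 the marker sums of mice 21 and 35 differed from those of mice 23 and 26. This split was noticed in the gene values above, and how many of all tested genes show it was not counted. The granule cell markers summed to 124 and 230 CPM in mice 21 and 35 and to 668 and 642 CPM in mice 23 and 26. The microglia markers summed to 4690 and 3350 CPM against 1330 and 1860 CPM, and the fibroblast and meninges markers (Col1a1, Col1a2, Dcn, Lum and Pdgfrl) to 248 and 194 CPM against 38.2 and 47.1 CPM.

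The part of these cell type changes in the gene changes was not tested. None of the granule cell, microglia, fibroblast or proliferation markers was at 0 in all 4 libraries of a group. In the EZ at day 7, 5 of 5 microglia markers, 5 of 5 oligodendrocyte precursor markers, 5 of 5 fibroblast markers and 5 of 5 proliferation markers were called higher. In the same comparison 4 of 5 CA pyramidal and 2 of 5 granule cell markers were called lower. In the PIZ at day 3, where Celsr1 rose and Ror1 fell, 5 of 5 microglia and 4 of 5 proliferation markers were called higher and 2 of 5 granule cell markers lower. Leukocyte markers summed to 39.3 to 129 CPM in the kainate EZ at day 7 against 15.0 to 18.1 CPM with saline, and Cd3e and Cd79a of that list were too low to test.

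The effects at successive days were compared directly. From day 3 to day 7 the kainate effect changed for 0 of the 10 genes in the EZ by edgeR, against 0.145% of all tested genes, with 0 genes at an unadjusted p under 0.05 (12% of all genes). DESeq2 called 0, limma-voom 1 and the fit with mouse as a block 2, beside 0.458%, 5.73% and 6.18% of all tested genes. From day 7 to day 14 in the EZ, 0 were called by edgeR, against 0.271%, with 5 genes at an unadjusted p under 0.05, against 33.1%. The values were -1.10 ± 0.26 for Celsr1 (adjusted p = 0.0125), -1.40 ± 0.40 for Prickle3 (0.0229), -2.74 ± 0.87 for Ror2 (0.0326), -0.72 ± 0.24 for Vangl1 (0.0403) and 0.51 ± 0.24 for Prickle2 (0.127).

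That last count moved with the method. DESeq2 called 1 gene, limma-voom with quality weights 7 and the fit with mouse as a block 7, beside 3.98%, 29.5% and 29.9% of all tested genes by the same methods. Without mouse 23 edgeR called 4, where the share of all tested genes was not counted. For Ror1 the change from day 7 to day 14 was -0.09 ± 0.40, with the day 14 value about as far below saline as the day 7 value. In the PIZ no change between days was called by edgeR, DESeq2 or limma-voom, against 0.0234% and 0.0% of all tested genes by edgeR. At an unadjusted p under 0.05, 1 gene passed from day 3 to day 7, Celsr1 with -0.70 (10.6% of all genes passed), and 0 from day 7 to day 14 (3.08%). Effects in the EZ and PIZ differed for 0 genes at day 3 (0.0655% of all tested genes) and at day 14 (0.0%) by edgeR, with 0 and 0 by DESeq2 and 1 and 0 by limma-voom, which called 8.78% of all tested genes at day 3. At an unadjusted p under 0.05, 1 gene (Ror2) passed at day 3, against 17.9%, and 0 at day 14, against 7.3%.

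The other genes of the pathway were described from a list of 41 by role. In the EZ, 7 of the 41 rose and 5 fell at day 3, 8 rose and 6 fell at day 7, and 1 fell at day 14, beside the 24.7%, 32.5% and 2.36% of all tested genes called. In the PIZ 3 fell at day 3, beside 1.57% of all tested genes, and 0 were called at day 7 and day 14 by edgeR. At an unadjusted p under 0.05 there were 10 and 5 genes, beside 14.5% and 5.97% of all tested genes. DESeq2 called 1 and 0 there (0.912% and 0.0421% of all genes), and limma-voom called 1 and 1 (3.84% and 0.449%), as it did with mouse as a block. The median log2 fold change of the list was 0.03, 0.19 and 0.00 in the EZ, beside 0.03, 0.01 and 0.00 over all tested genes.

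Of the 4 ligands and ligand partners, Wnt5b and Cthrc1 rose in the EZ. Cthrc1, a secreted glycoprotein that favors Wnt binding to the Frizzled and Ror2 pair, went from 4.99 ± 0.868 (SD, n = 4) to 13 ± 4.97 CPM at day 3 and from 3.56 ± 0.526 to 16.8 ± 9.67 CPM at day 7, with log2 fold changes of 1.39 ± 0.37 and 2.23 ± 0.38. Wnt5b, a ligand of the PCP branch, rose by 1.26 ± 0.31 and 1.42 ± 0.31. Wnt11, another such ligand, fell by 2.45 on the log2 scale at day 7, from a level of 0.948 ± 0.277 CPM. Wnt5a, the best known ligand of Ror2, was not called in any comparison.

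Of the 7 receptors and co-receptors, Fzd6, Fzd7 and Ptk7 rose in the EZ at day 3 and day 7. Fzd6, the Frizzled most tied to PCP in the hair and inner ear, changed by 0.65 ± 0.18 and 1.22 ± 0.18 on the log2 scale, with an edgeR adjusted p of 5.08e-07 at day 7. Fzd7 changed by 1.18 ± 0.24 and 1.23 ± 0.24, and Ptk7, a pseudokinase co-receptor, by 0.82 ± 0.18 and 0.88 ± 0.18. None of the 7 was called in the PIZ. Of the 6 cytoplasmic core genes (the Dishevelled genes Dvl1, Dvl2 and Dvl3, with Ankrd6, Scrib and Prickle4) and the 3 ciliary effectors (Intu, Fuz and Wdpcp), 0 were called in any comparison.

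Among the 8 genes of trafficking, turnover and inhibition, Rnf43, a ligase that removes Frizzled from the membrane, rose by 0.88 ± 0.22 and 0.74 ± 0.22 in the EZ at days 3 and 7. Dact1, a Dishevelled-binding protein, fell at day 3 in both zones, with log2 fold changes of -0.79 ± 0.23 in the EZ and -1.02 ± 0.23 in the PIZ. Of the 9 effectors, Rhoa, the small GTPase that PCP signaling acts through on the cytoskeleton, went from 120 ± 10.4 to 203 ± 36.7 CPM at day 3 and from 104 ± 7.08 to 199 ± 51.4 CPM at day 7 in the EZ. Of the 3 JNK genes, Mapk8 and Mapk10 fell on both days in the EZ, with -0.79 ± 0.15 and -0.98 ± 0.15 for Mapk8 and -0.84 ± 0.16 and -1.14 ± 0.16 for Mapk10 at days 3 and 7. Mapk9 stayed under the 1.5-fold limit at day 3 (-0.49 ± 0.09, adjusted p = 4.48e-05) and fell at day 7 (-0.60 ± 0.09). Daam2, a formin that links Dishevelled to Rhoa, rose at day 7 (0.73 ± 0.14). Mapk10 also fell in the PIZ at day 3, by 0.68 on the log2 scale.

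The Fat-Dachsous genes encode giant cadherins of a second polarity system. Fat4 was the gene of the list called in the most comparisons, lower at all 3 days in the EZ and at day 3 in the PIZ. It went from 55.1 ± 6.28 to 23.4 ± 1.42 CPM at day 3, from 59.2 ± 11.7 to 20.6 ± 8.41 CPM at day 7 and from 74.8 ± 5.47 to 36.4 ± 16.1 CPM at day 14 in the EZ. In the PIZ at day 3 it went from 67.6 ± 14.0 to 23.2 ± 2.35 CPM, a log2 fold change of -1.54 ± 0.25 (edgeR adjusted p = 2.25e-05). The day 14 call (-1.04 ± 0.24, adjusted p = 0.00625) was lost without any 1 of kainate mice 14 and 27 and saline mice 24, 28, 31 and 39. Dchs2, a dachsous cadherin at a lower level, fell in the EZ at days 3 and 7, with log2 fold changes of -2.04 ± 0.49 and -1.71 ± 0.48.

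**Figure D4:**
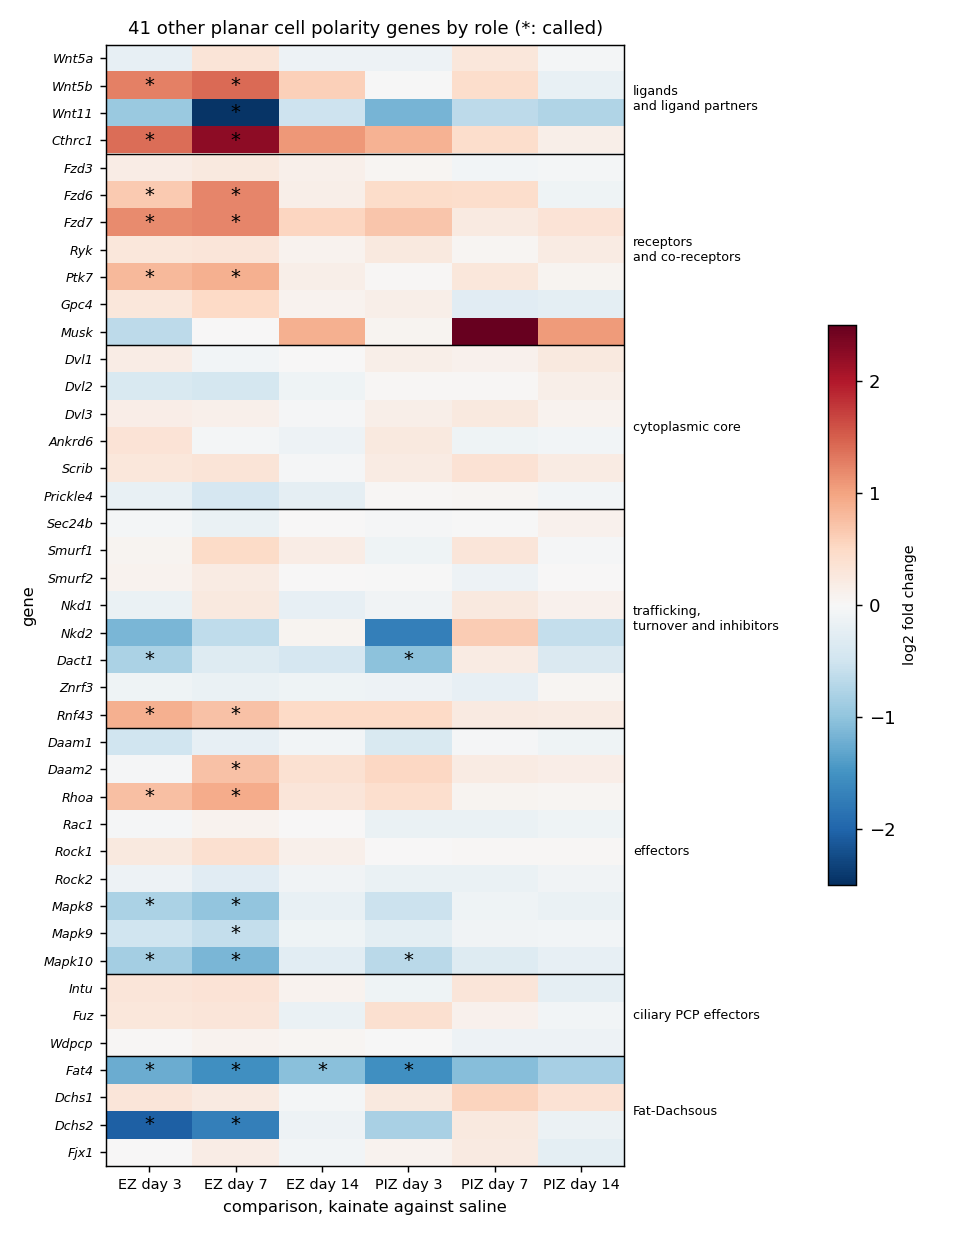
Log2 fold change of kainate against saline (color) for the 41 other genes of the pathway (rows, grouped by role) in the 6 comparisons (columns), with a star where edgeR called the gene. Stars number 12 and 14 in the EZ at days 3 and 7, 1 in the EZ at day 14 and 3 in the PIZ at day 3, and the dark PIZ day 7 square of Musk rests on a mean of 0.328 CPM and carries no star.

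Across the 12 group means of log2 CPM, the genes most like each of the called members were found by Pearson's r, as a description, since groups of a mouse share animals and all means share the kainate contrast. Vangl1 was most like Ncapg (r = 0.994), Cenpl and Melk. Celsr1 was most like Nlrp1b (0.989) and Entpd2, Celsr2 most like Dbn1 (0.991) and Plppr2, and Celsr3 most like Sptbn4 and Lmo7 (both 0.986). Prickle2 was most like Umad1 and Amy1 (both 0.992), Prickle3 most like Amdhd2 (0.979), Ror1 most like Gm5069 (0.985), and Ror2 most like Gm28042 (0.954). Among the 10 genes themselves, the strongest opposite courses were those of Vangl1 and Prickle2 (r = -0.95) and of Prickle2 and Celsr1 (-0.94).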

How the data were processed

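Poly-A selected, stranded libraries were sequenced as paired reads. According to the submitters' processing notes and the methods, the authors trimmed reads with fastp 0.20.1, aligned them to GRCm39 with HISAT2 2.2.1 and assigned them to Gencode M28 genes by strand with featureCounts of Subread 1.6.4, taking a multi-mapping read at its primary alignment. Raw counts were deposited for 55357 genes, without normalization. Gencode M39 matched 98.9% of identifiers and gave positions and exon lengths. Gm12701 lies within Ror1 and Gm56134 within Celsr3 on the same strand, so reads there could go to either gene.

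From these counts, edgeR 4.0.16 in R 4.3.3 filtered genes with filterByExpr (21390 left), scaled libraries by TMM and fitted 1 mean per group to all 48 libraries with a quasi-likelihood model. A gene was called past a 1.5-fold change when its p, adjusted after Benjamini and Hochberg, was under 0.01, as in the study. SE was the absolute log2 fold change over the square root of F. Exact permutation tests and within-mouse differences used log2 CPM with a prior count of 2. RPKM used exon length, and only RPKM was compared between genes. On simulated counts for the EZ day 3 comparison, 76 of 92 genes changed 4-fold, 66 of 108 changed 2-fold and 2 of 21190 unchanged genes were called. The simulation gave each gene 1 dispersion in all groups, 1 mean outside the changed group and no tie within a mouse. It also changed far fewer genes than were called in the data, so its rates need not hold there.

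Library totals of 17762656 to 25712975 counts set the counting error. Both libraries of a mouse come from the same animal, and their residuals correlated at -0.0536 to 0.376, so mouse entered as a block in an alternative, as a fixed term for comparisons between zones and through limma's duplicateCorrelation (0.204) otherwise. Other alternatives were DESeq2 1.42.0, limma-voom 3.58.1 with quality weights, RLE scaling, scaling by library size alone, no filter on low counts, glmTreat against 1.5-fold, an adjusted p under 0.05, only the compared groups, and each mouse left out in turn.

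All 10 genes are named with values. Pathway genes are named when called, at most the 3 of smallest p per role, or where a count is 5 or fewer, and Wnt5a, Musk, Mapk9, Daam2 and the uncalled core and ciliary genes are named beyond that rule after their values were seen. The genes, lists and marker sets were chosen with earlier results of these data known. Motifs were searched in 32851 RefSeq windows of 250 bases before a start.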

Additional observations from a re-analysis of the deposited data

Results flagged for a closer look

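In 5 of 120 tests of 1 gene in 1 group of 4, the highest or lowest library lay far from the other 3 by Dixon's criterion, and chance gives about 1 in 20. Ror1 was 5.10 CPM in saline mouse 28 in the EZ at day 14, against 7.74 to 8.11 CPM in the other saline mice, and Vangl1 in the same library was 4.0 CPM against 3.39 to 3.46 CPM. In the kainate EZ at day 14, mouse 27 had 1.27 CPM of Ror1 against 3.88 to 4.54 CPM, and 77.4 CPM of Celsr3 against 173 to 203 CPM. That library also had a microglia marker sum of 2370 CPM, against 437 to 611 CPM in the other mice of its group, and what part this has in the values was not tested. Ror2 was 0.493 CPM in saline mouse 20 in the PIZ at day 7, against 0.347 to 0.364 CPM.

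By the main test the kainate effect on Celsr2 differed between zones at day 7, with an EZ effect minus PIZ effect of -0.70 on the log2 scale by the interaction contrast in edgeR (adjusted p = 0.00742). The call was lost without any 1 of 6 of the 8 mice (adjusted p up to 0.0682), when only the compared groups were fitted (0.0282) and with glmTreat (0.461). It was kept with RLE scaling, DESeq2, limma-voom and mouse as a fixed block in edgeR (-0.73, adjusted p = 0.00874).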

How the results depend on the processing

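Counts of the 10 genes called in the EZ at day 3 (6), the EZ at day 7 (8) and the PIZ at day 3 (2) were 1, 2 and 0 with glmTreat against 1.5-fold. Shares of all genes were not counted with glmTreat. The count of the EZ at day 7 was 2 when only the compared groups were fitted, beside 18.8% of all tested genes. In the EZ at day 14 (0) it was 1 with DESeq2 (3.44% of all tested genes) and with an adjusted p under 0.05 (4.82%). The zone difference at day 7 (1) gave 0 with glmTreat and 0 with only the compared groups (5.32% of all tested genes). It gave 4 with an adjusted p under 0.05 (20.5%) and 5 with limma-voom (24%), and that at day 3 (0) gave 1 with limma-voom (8.78%). The change from day 3 to day 7 in the EZ (0) gave 1 with limma-voom (5.73%) and 2 with the mouse block (6.18%). That from day 7 to day 14 gave 4 with an adjusted p under 0.05 (11.1%), 1 with DESeq2 (3.98%), 7 with limma-voom (29.5%) and 7 with the mouse block (29.9%).

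Of the 41 pathway genes, glmTreat called 1, 8 and 0 in the EZ at days 3, 7 and 14 and 1 in the PIZ at day 3. Only the compared groups called 0 in the EZ at day 14, beside 0% of all tested genes. An adjusted p under 0.05 gave 5 for PIZ day 3 and 1 for PIZ day 7, beside 13.2% and 1.07%. For PIZ day 7, only the compared groups, DESeq2, limma-voom and the mouse block each called 1, beside 0.711%, 0.912%, 3.84% and 4.19%. For PIZ day 14 limma-voom and the mouse block each called 1, beside 0.449% and 0.453%. The cause of these changes was not tested.

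With each mouse left out in turn, the 10 genes gave 4 to 6 calls in the EZ at day 3, 4 (without kainate mouse 21 or 35) to 8 at day 7 and 0 to 1 at day 14, and 2 to 3 in the PIZ at day 3. The zone difference at day 7 gave 0 to 3 and the change from day 7 to day 14 in the EZ 0 to 4. The pathway list gave 8 to 12, 11 to 14 and 0 to 1 calls in the EZ and 2 to 4 in the PIZ at day 3. The shares of all tested genes in the fits with a mouse left out were not counted. These ranges therefore do not show whether the calls moved more for these genes than for others. Among the differences of the 10 genes between kainate and saline, limma-voom changed 2 calls both with the mouse block (Ror1 in the EZ at day 7, -1.12, and Vangl1 in the PIZ at day 3, 0.593) and without it (-1.13 and 0.587), and the block changed no other call. No called value changed sign under any alternative run. Uncalled values changed sign 12 times under the alternatives other than leaving out a mouse, and some also did when a mouse was left out, such as Ror2 in the PIZ at day 14 (-0.752 to 0.15). With scaling by library size only, the median log2 fold change of all genes was 0.16 in the EZ at day 3, against 0.032 with TMM.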
